A study of Mus musculus with 12 samples.

Results

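Collagen chains were examined in the total RNA-seq data of interscapular brown adipose tissue (iBAT), the heat-producing fat depot between the shoulder blades. A chain was included if its row was typed as protein coding and its symbol was Col, a number, the letter a and a number. The rule found 44 chains among the 61210 genes of the table. By known structure they comprised 11 fibrillar chains, 6 basement membrane chains, 9 FACIT chains (fibril-associated collagens with interrupted triple helices) and 18 others. The others were type VI, multiplexin, transmembrane, short-chain network and anchoring fibril chains and a pair that fits none of these classes.

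The mice were wild type C57BL/6N, 20 weeks old, and fell into 4 groups of 3 libraries. They had chow as the control diet (NCD) or a high-fat diet (HFD) given for 12 weeks from 8 weeks of age. On each diet 1 group stayed at room temperature and 1 was housed at 4 °C for 24 h. The labels name no transgene or drug in any group, and the comparison asked how each chain differed with cold, with diet and with both.

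Collagens are secreted as trimers of chains that wind into a triple helix. Fibrillar collagens form the cables of connective tissue and in fat are made mainly by fibroblasts and other stromal cells. Type IV collagen forms a sheet-like network in basement membranes, which wrap every adipocyte and lie under the endothelium of the capillaries. FACIT chains sit on the surface of fibrils, and type VI forms beaded filaments close to cells that are prominent in adipose tissue.

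Libraries held 15136861 to 46740702 counts. Replicates 1 and 2 of each group are batch 1 in the labels and replicate 3 is batch 2, so each batch holds all 4 groups. No library was a copy of another, and any pair of libraries from the same group had a Spearman correlation of 0.964 to 0.986 over genes. The brown adipocyte markers Ucp1, Cidea, Adipoq, Plin1, Ppargc1a, Dio2 and Elovl3 were summed in every library as CPM (counts scaled to the library size after edgeR's TMM normalisation). Their summed level was 7115 to 8691 CPM on NCD at room temperature and 21034 to 24130 CPM on NCD in the cold. On HFD it was 9001 to 11381 CPM at room temperature and 16255 to 19664 CPM in the cold. In every group 1 library stood apart by its skeletal muscle markers, at 2476, 15140 and 3208 CPM over the libraries of NCD room temperature, 1258, 8281 and 1068 CPM in NCD cold, 1741, 1944 and 15943 CPM in HFD room temperature and 521, 678 and 4869 CPM in HFD cold. These were replicate 2 of both NCD groups and replicate 3 of both HFD groups. Calls that were lost without these 4 libraries are given with the value they then took. Leaving them out also lowered the calls over all genes tested, from 1049 to 281 for cold on NCD and from 2123 to 1706 for cold averaged over the diets.

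Collagen chains took up 0.286 to 0.411% of all counts in the NCD room temperature libraries, 0.232 to 0.276% in NCD cold, 0.284 to 0.319% in HFD room temperature and 0.358 to 0.521% in HFD cold. Levels between chains were compared as CPM per kb of the longest annotated coding transcript. By that measure the type IV chains Col4a1 and Col4a2 ranked first and second, with a mean over all libraries of 158 and 109 CPM per kb. The fibrillar chains Col3a1 (75.1), Col1a2 (34.8) and Col1a1 (19.8) followed, and then the type VI chain Col6a1 (17.0). The first 3 chains of that order held 66.1% of all collagen CPM per kb. The highest FACIT chain was Col12a1 with 4.82 CPM per kb.

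The makeup of the collagen mRNA differed between the groups. Col4a1 and Col4a2 together made up 34.1, 26.5 and 26.4% of the collagen counts per length in the 3 NCD room temperature libraries and 59.6, 61.0 and 60.0% in the 3 NCD cold libraries. On HFD the same share was 52.1, 46.6 and 42.9% at room temperature and 80.3, 71.5 and 64.6% in the cold. Within each diet every cold library was above every room temperature library. The fibrillar share ran the other way, with 46.4 to 55.9% on NCD at room temperature, 26.4 to 27.6% on NCD in the cold, 31.3 to 38.3% on HFD at room temperature and 12.5 to 22.8% on HFD in the cold. FACIT chains made up 1.96 to 2.11%, 1.12 to 1.27%, 2.39 to 2.87% and 1.21 to 1.83% in the same order, and the remaining chains 15.5 to 17.2%, 10.6 to 11.9%, 13.0 to 15.9% and 5.56 to 10.4%. These shares are relative, so a rise of 1 chain lowers the share of the others.

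**Figure D1:**
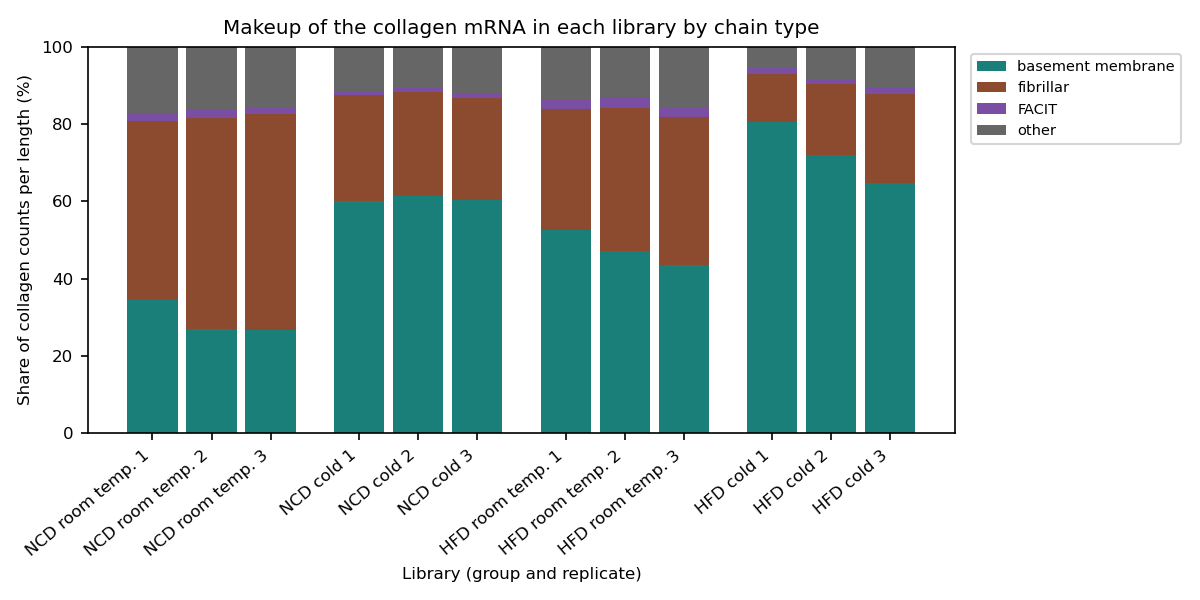
Share of each chain type in the collagen counts per kb of transcript, in percent, with 1 stacked bar for each library. Basement membrane chains made up the smallest part in the NCD room temperature libraries (26.6 to 34.5%) and the largest in the HFD cold libraries (64.9 to 80.6%).

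Of the 44 chains, 33 had counts high enough to be tested among 16737 genes, and 11 did not. A chain was called if its adjusted p was under 0.05 and its log2 fold change was over 0.5 in size. With the cold contrast averaged over both diets, 18 of the 33 tested chains were called, against 12.7% of all genes tested. Of these 4 were higher in the cold (6.09% of all genes tested) and 14 lower (6.6%). The median log2 fold change of the tested chains was -0.66 and that of all genes tested -0.03. In bulk tissue, fewer cells of a type and less RNA per cell cannot be told apart, and this holds for each change below. The count of called chains was 17 to 22 when each library was left out in turn, and 15 of the 18 calls held in each of these 12 fits. Within batch 1 alone, 15 of the 18 passed, and in batch 2, with 1 library per group and no test, all 18 differed in the same direction. At an unadjusted p under 0.05, without a limit on size, 22 of the 33 passed, against 34.3% of all genes tested.

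**Figure D2:**
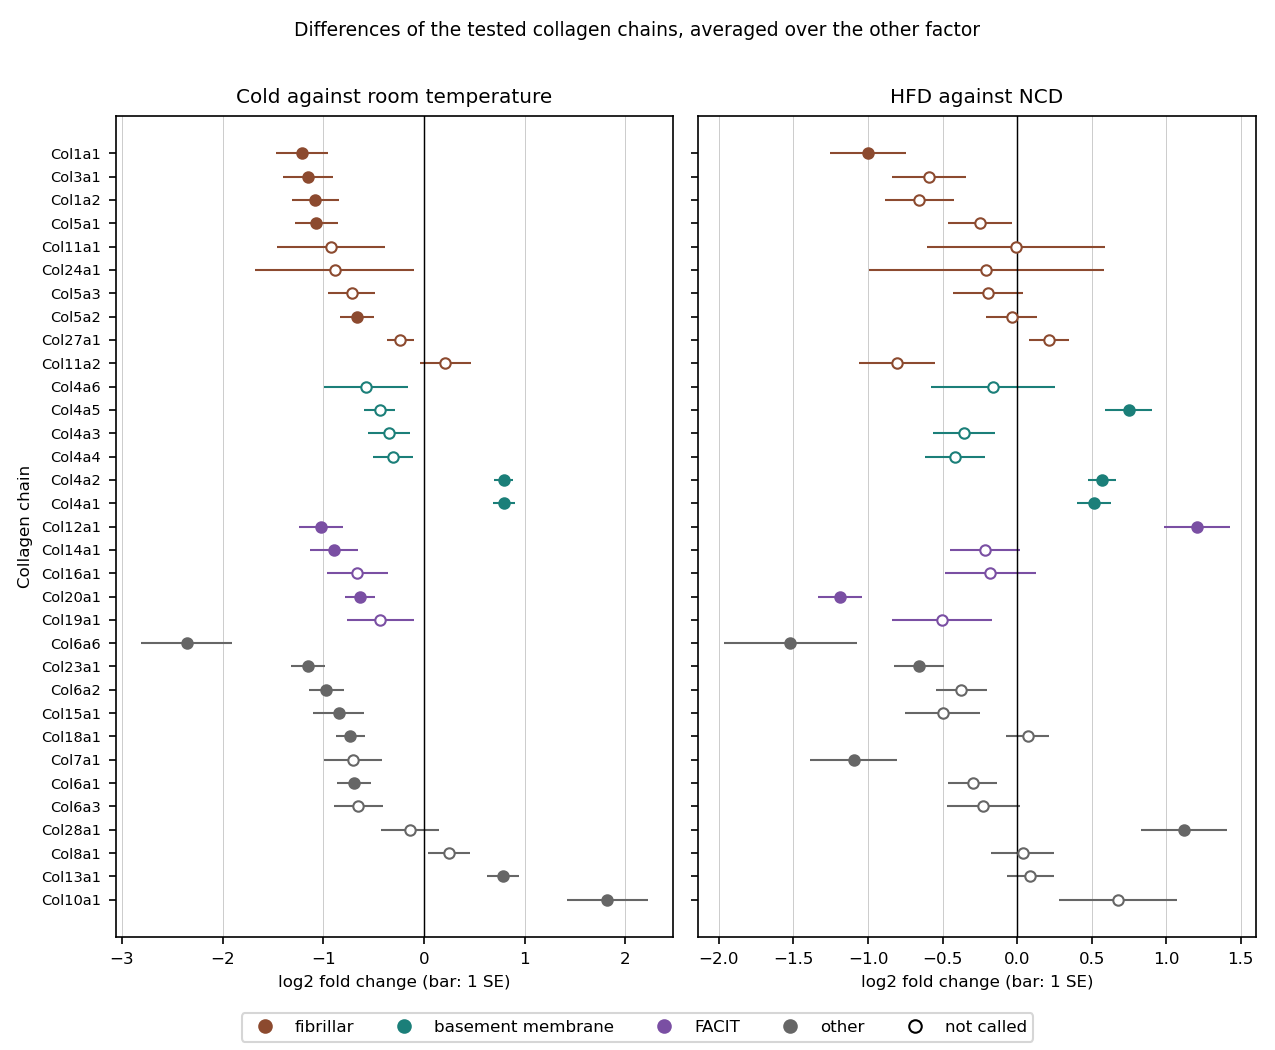
Log2 fold change of each of the 33 tested chains in the cold (left, averaged over both diets) and on HFD (right, averaged over both temperatures), with 1 SE as the bar. Filled points were called and the colours give the chain type, and in the cold 4 filled points lie to the right of 0 (Col4a1, Col4a2, Col13a1 and Col10a1) and 14 to the left.

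Within each diet, cold changed 11 of 33 tested chains on NCD, against 6.27% of all genes tested, with 2 higher (background 3.72%) and 9 lower (2.55%). On HFD it changed 7 chains (background 9.58%), 3 higher (5.39%) and 4 lower (4.19%). The median log2 fold change of the tested chains was -0.74 on NCD and -0.51 on HFD, beside -0.01 and -0.04 for all genes tested. Among the tested chains, 27 lay below 0 on NCD and 26 on HFD. At an unadjusted p under 0.05, 21 passed on NCD (background 21.9%) and 11 on HFD (27.5%). The 3 cold libraries lay wholly above the 3 room temperature libraries for 3 chains on NCD (background 15.2%) and 3 on HFD (15.9%), and wholly below for 16 on NCD (12.6%) and 6 on HFD (14.4%). In batch 1 alone, with 2 libraries per group, 5 of the 11 calls on NCD and 0 of the 7 on HFD passed, and all of them had the same sign in both batches. The calls over all genes tested fell as well when an NCD library was left out, from 1049 to between 490 and 858. The NCD count of chains was 3 without NCD room temperature replicate 3, 5 without NCD room temperature replicate 2 or NCD cold replicate 3, 4 without NCD cold replicate 1 or 2, and 6 without the muscle-rich libraries. The HFD count was 11 without HFD cold replicate 3, and 11 with replicate numbers as a block inside each diet, 8 of them lower. No label gives the pairing in this block, which was drawn from these same data, and this limits each call made with it below. Over all genes the block called 1483 for cold on NCD (main 1049) and 2153 for cold on HFD (main 1603). The 4-group test, which asks for any difference and uses an adjusted p under 0.001, called Col4a1, Col4a2 and Col20a1, against 2.55% of all genes tested (23 chains at an unadjusted p under 0.05, background 38.9%), but each of these 3 calls was lost without single libraries and without the muscle-rich libraries. Its count was 0 or 1 without any library but HFD cold replicate 3, without which it was 3 with Col3a1, Col6a1 and Col6a2 in place of the others.

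Col4a1 and Col4a2 encode the chains of the common type IV trimer, in which a pair of Col4a1 chains joins with a single Col4a2 chain. Both rose in the cold and were higher on HFD than on NCD averaged over the temperatures. At room temperature neither was called for HFD. There the log2 difference was 0.29 (SE 0.16, adjusted p = 0.359) for Col4a1 and 0.43 (SE 0.13, adjusted p = 0.114) for Col4a2. Col4a1 was at 709.9, 558 and 759.5 CPM in the NCD room temperature libraries and at 963, 1123 and 936 CPM in NCD cold. On HFD it was at 935, 840.0 and 712 CPM at room temperature and 1823, 1409 and 1799 CPM in the cold. Within each diet the cold and room temperature libraries did not overlap, and the 3 HFD cold libraries were the highest of all 12. Averaged over the diets, Col4a1 was 1.74-fold higher in the cold, with a log2 difference of 0.80 (SE 0.11, adjusted p = 0.000685).

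For Col4a1, the cold difference within HFD was 1.02 (SE 0.16, adjusted p = 0.00322), and within NCD it was 0.58 (SE 0.16, adjusted p = 0.0519), just outside the threshold. Averaged over the temperatures, HFD was higher by 0.52 (SE 0.11, adjusted p = 0.0139), and at 4 °C by 0.74 (SE 0.16, adjusted p = 0.0272). The value in the cold did not pass without NCD cold replicates 1 or 3 or HFD cold replicates 1 or 3 (0.68 to 0.70, adjusted p = 0.0978 to 0.110), nor without the muscle-rich libraries (0.77, adjusted p = 0.0583). The averaged HFD value fell below the fold threshold, with the adjusted p still under 0.05, without NCD room temperature replicate 2, NCD cold replicates 1 or 3, HFD room temperature replicate 1 or HFD cold replicates 1 or 3 (0.45 to 0.48, adjusted p = 0.0330 to 0.0462).

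Col4a2 was at 454, 367 and 478 CPM on NCD at room temperature and at 678, 709 and 660.3 CPM on NCD in the cold. On HFD the libraries held 648, 588 and 517 CPM at room temperature and 1159, 996 and 1186 CPM in the cold. The order of the groups was that of Col4a1, and again the cold libraries lay above the room temperature libraries of the same diet. The cold difference of Col4a2 averaged over the diets was 0.79 (SE 0.09, adjusted p = 0.000215), or 1.73-fold. It passed on NCD at 0.66 (SE 0.13, adjusted p = 0.0131) and on HFD at 0.93 (SE 0.13, adjusted p = 0.00174). The NCD call was lost without NCD room temperature replicate 2 (0.55, adjusted p = 0.0540) and without the muscle-rich libraries (0.52, adjusted p = 0.111). HFD was higher by 0.57 (SE 0.09, adjusted p = 0.00342) averaged over the temperatures and by 0.71 (SE 0.13, adjusted p = 0.0132) in the cold, and the latter was lost without NCD cold replicates 1 or 3 or HFD cold replicates 1 or 3 (0.66 to 0.71, adjusted p = 0.0602 to 0.0632) and without the muscle-rich libraries (0.69, adjusted p = 0.0532). In batch 1 the averaged cold difference was 0.79 for Col4a1 and 0.78 for Col4a2, and in batch 2 it was 0.82 and 0.83.

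The ratio of Col4a1 to Col4a2 per length stayed at 1.48 to 1.55 on NCD at room temperature, 1.38 to 1.54 on NCD in the cold, 1.34 to 1.41 on HFD at room temperature and 1.38 to 1.53 on HFD in the cold. Cold moved its log2 by 0.00 averaged over the diets (two-sided exact permutation test within diet, p = 0.98, 400 arrangements, 3 libraries per group). Col4a1 lies at 11198423 to 11312826 of chromosome 8 on the minus strand and Col4a2 at 11312805 to 11449287 on the plus strand, so that they stand head to head and are transcribed away from each other on opposite strands. In this annotation (GENCODE M21 on GRCm38) they overlap by 22 bases, and counts from that stretch could be given to either gene, since the sources used here do not state whether strand was used in counting.

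Sequences around the transcription start were taken from RefSeq (GRCm38.p6), 250 bases before to 50 after each start, which gave windows for 35 of the 44 chains. Shown are the window of Col4a1, which rose in the cold, and those of Col1a2 and Col3a1, the fibrillar chains of highest level with a window, which fell. Capitals mark the CCAAT box, the GC box motif GGGCGG and the TATA motif TATAAA on either strand, so that ATTGG stands for a CCAAT box and CCGCCC for a GC box on the opposite strand. The Col4a1 window lies at chr8:11312777-11313076 on the minus strand, that of Col1a2 at chr6:4505368-4505667 on the plus strand and that of Col3a1 at chr1:45311288-45311587 on the plus strand.
Col4a1: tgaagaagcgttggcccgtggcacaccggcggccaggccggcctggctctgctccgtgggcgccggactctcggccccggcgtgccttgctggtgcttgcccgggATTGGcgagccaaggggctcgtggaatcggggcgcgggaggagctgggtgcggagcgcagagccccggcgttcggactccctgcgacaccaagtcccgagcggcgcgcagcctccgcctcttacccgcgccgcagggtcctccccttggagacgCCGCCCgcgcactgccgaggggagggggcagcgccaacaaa
Col1a2: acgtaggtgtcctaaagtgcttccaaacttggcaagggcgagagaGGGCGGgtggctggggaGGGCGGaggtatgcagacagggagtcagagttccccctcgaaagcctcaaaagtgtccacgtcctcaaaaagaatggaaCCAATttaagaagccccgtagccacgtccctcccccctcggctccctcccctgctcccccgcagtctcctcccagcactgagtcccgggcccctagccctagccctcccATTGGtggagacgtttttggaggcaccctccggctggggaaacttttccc
Col3a1: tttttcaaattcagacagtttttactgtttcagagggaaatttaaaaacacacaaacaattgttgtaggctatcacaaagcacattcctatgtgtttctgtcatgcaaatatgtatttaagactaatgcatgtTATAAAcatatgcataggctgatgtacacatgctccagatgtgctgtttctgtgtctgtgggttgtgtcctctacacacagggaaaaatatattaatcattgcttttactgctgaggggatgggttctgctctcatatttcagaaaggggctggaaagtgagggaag

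The Col4a1 window held 1 CCAAT box and 1 GC box, and the Col4a2 window, which overlaps it, held 1 and 3. That of Col1a2 held 2 of each, and that of Col3a1 held neither of them but 1 TATA motif. Over all 32851 windows of the same length, 37.4% held the CCAAT box, 35.7% the GC box and 13.6% the TATA motif. Among the 35 chains with a window 13, 22 and 5 did in at least 1 of their windows. The shares are per window and the counts per chain, and Col9a1, Col6a2 and Col18a1 had more than 1 window. The Col4a1 window was 74.0% G and C, that of Col1a2 61.0% and that of Col3a1 37.7%. These matches describe the letters of the windows, and binding at them was not measured.

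The other basement membrane chains were far lower. Col4a5, which forms a trimer with Col4a3 and Col4a4 or with Col4a6, was at 8.52, 7.79 and 6.44 CPM on NCD at room temperature, 3.44, 4.77 and 5.30 CPM on NCD in the cold, 11.2, 10.7 and 9.04 CPM on HFD at room temperature and 6.89, 9.55 and 11.6 CPM on HFD in the cold. Both HFD groups lay higher than the NCD group at the same temperature, with no overlap. HFD was higher by 0.75 (SE 0.16, adjusted p = 0.0112) averaged over the temperatures, which did not pass in batch 1 (0.71, adjusted p = 0.0582) or without the muscle-rich libraries (0.72, adjusted p = 0.0543). In the cold it was higher by 1.05 (SE 0.22, adjusted p = 0.0243), lost without NCD cold replicates 1 or 3 or HFD cold replicate 3 (0.87 to 1.18, adjusted p = 0.0531 to 0.0957) and without the muscle-rich libraries (0.89, adjusted p = 0.115). The cold difference of Col4a5 did not pass (log2 difference -0.44, SE 0.16, adjusted p = 0.0666). It passed in batch 1 (-0.70, adjusted p = 0.0317) and without HFD cold replicate 3 (adjusted p = 0.0379), and was 0.04 in batch 2. Col4a3, Col4a4 and Col4a6 had means of 2.53, 3.70 and 0.397 CPM over all libraries and were called in none of the comparisons.

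Types I, III and V collagen make up the interstitial fibrils. Type I consists of Col1a1 and Col1a2, type III of Col3a1 alone, and type V, which regulates fibril diameter, of Col5a1, Col5a2 and Col5a3. Of these 6 chains, 5 fell in the cold averaged over the diets, against 6.6% of all genes tested, and Col5a3 did not pass. Their median log2 fold change was -1.07, beside -0.03 for all genes tested.

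Col3a1, the fibrillar chain of highest level, was at 650.2, 739.9 and 1046 CPM on NCD at room temperature and at 245, 258 and 245 CPM on NCD in the cold. On HFD it was at 292, 406 and 403 CPM at room temperature and 122, 194 and 411 CPM in the cold. The NCD cold libraries lay within a narrow range well below all 3 room temperature libraries. On HFD the groups overlapped through replicate 3 of HFD cold, which was the highest of its group by far. Averaged over the diets, Col3a1 fell by 1.15 in log2 units (SE 0.25, adjusted p = 0.00775), or 2.22-fold.

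Col1a1 was at 146, 246 and 359 CPM on NCD at room temperature, 61.2, 95.5 and 73.1 CPM on NCD in the cold, 73.6, 112 and 80.1 CPM on HFD at room temperature and 36.4, 42.5 and 83.7 CPM on HFD in the cold. Col1a2 was at 237, 357 and 454 CPM on NCD at room temperature, 111, 143 and 117 CPM on NCD in the cold, 109.8, 191 and 197 CPM on HFD at room temperature and 68.2, 88.6 and 158 CPM on HFD in the cold. For both chains the NCD room temperature libraries were the highest, with replicate 3 at the top. Their SD in CPM was the largest, at 106 on a mean of 250 for Col1a1 and 109 on 349 for Col1a2. Beside its lower mean the HFD cold group was spread more widely, at 25.7 on 54.2 CPM and 46.9 on 105 CPM. Averaged over the diets, Col1a1 fell 2.31-fold (log2 difference -1.21, SE 0.26, adjusted p = 0.00675) and Col1a2 2.11-fold (log2 difference -1.08, SE 0.23, adjusted p = 0.00746). Col1a1 was also lower on HFD averaged over the temperatures, with a log2 difference from NCD of -0.998 (SE 0.26, adjusted p = 0.0268). This call was lost without NCD room temperature replicate 3, NCD cold replicate 2, HFD room temperature replicates 1 or 3 or HFD cold replicates 1 or 2 (-0.84 to -0.96, adjusted p = 0.0522 to 0.0669).

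Of the type V chains, Col5a1 was at 99.7 ± 29.5 CPM (mean ± SD, n = 3) on NCD at room temperature, 38.5 ± 2.05 CPM on NCD in the cold, 68.0 ± 7.35 CPM on HFD at room temperature and 39.997 ± 21.2 CPM on HFD in the cold. It fell in the cold by 1.07 in log2 units (SE 0.22, adjusted p = 0.00518). Col5a2, a near neighbour of Col3a1 on chromosome 1, was at 70.2, 88.9 and 112 CPM on NCD at room temperature, 36.1, 35.7 and 37.5 CPM on NCD in the cold, 49.99, 62.2 and 56.6 CPM on HFD at room temperature and 33.3, 63.4 and 70.4 CPM on HFD in the cold. It fell by 0.66 in log2 units (SE 0.17, adjusted p = 0.0182) averaged over the diets, a call lost without NCD room temperature replicate 3 (-0.55, adjusted p = 0.0546), in batch 1 (-0.68, adjusted p = 0.0654) and without the muscle-rich libraries (-0.76, adjusted p = 0.0574). Col5a3 had -0.72 (SE 0.23, adjusted p = 0.0501) for the same contrast, and passed with the replicate block within diet (-0.74, adjusted p = 0.00719). Within batch 1 the averaged cold differences were -1.28 for Col1a1, -1.08 for Col1a2, -1.31 for Col3a1 and -1.14 for Col5a1, and within batch 2 -1.11, -1.14, -1.03 and -1.04.

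**Figure D3:**
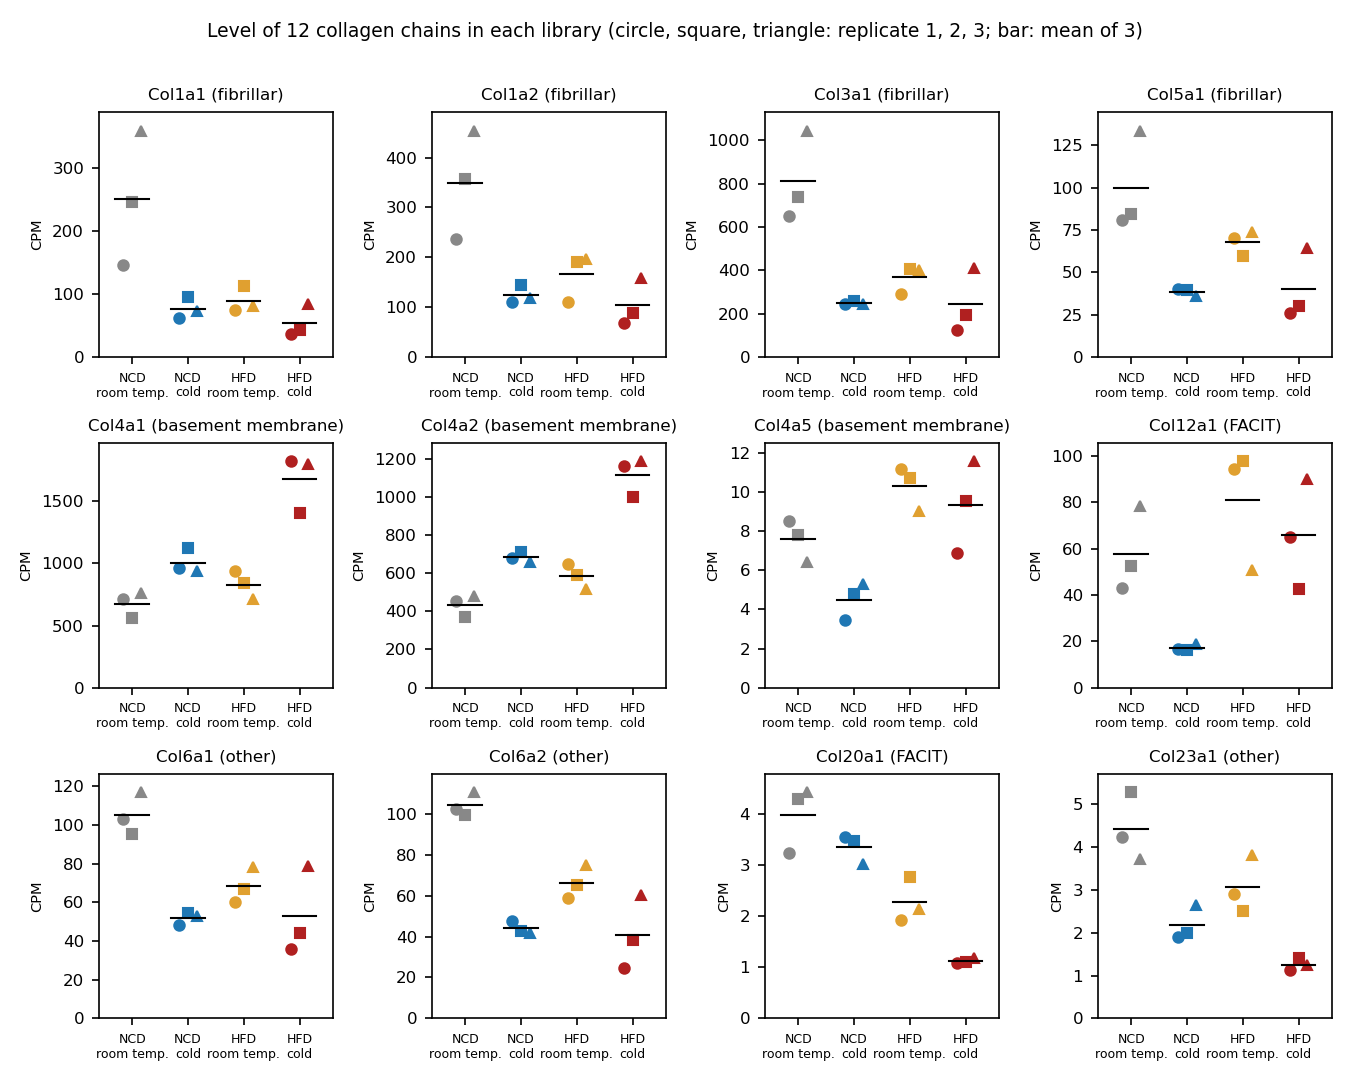
Level in CPM of 12 chains in every library, with circle, square and triangle for replicates 1, 2 and 3 and a bar for the mean of each group of 3. Col4a1 and Col4a2 were highest in the HFD cold libraries, while the fibrillar and type VI chains were highest in the NCD room temperature libraries, and replicate 3 of HFD cold stood above the others of its group for Col1a1, Col1a2, Col3a1, Col5a1, Col6a1 and Col6a2.

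On NCD alone, Col1a1, Col1a2, Col3a1, Col5a1 and Col5a2 all fell in the cold, with log2 fold changes of -1.71, -1.496, -1.70, -1.38 and -1.31 and SEs of 0.37, 0.33, 0.36, 0.31 and 0.25. Their adjusted p-values were 0.0178, 0.0212, 0.0167, 0.0215 and 0.0101. The Col5a2 call held when each library was left out in turn but not without the muscle-rich libraries (-1.31, adjusted p = 0.0784). The call was lost for Col1a1 without NCD room temperature replicates 2 or 3 or NCD cold replicates 1 or 3 (-1.35 to -1.72, adjusted p = 0.0506 to 0.0792), for Col1a2 without NCD room temperature replicates 2 or 3 or NCD cold replicates 1, 2 or 3 (-1.26 to -1.61, adjusted p = 0.0541 to 0.0877), for Col3a1 without NCD room temperature replicate 3 or NCD cold replicates 1, 2 or 3 (-1.48 to -1.73, adjusted p = 0.0567 to 0.0709) and for Col5a1 without NCD room temperature replicate 3 or NCD cold replicates 1, 2 or 3 (-1.10 to -1.39, adjusted p = 0.0656 to 0.0926). Without the muscle-rich libraries Col1a1 (-1.91, adjusted p = 0.0530) and Col1a2 (-1.60, adjusted p = 0.0610) did not pass either. In these alternatives each chain kept its sign.

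On HFD the 6 chains of types I, III and V had log2 fold changes in the cold of -0.71 for Col1a1, -0.66 for Col1a2, -0.60 for Col3a1, -0.76 for Col5a1, -0.01 for Col5a2 and -0.67 for Col5a3, and none passed (adjusted p = 0.130 to 0.977). With replicate numbers as a block inside each diet, a pairing drawn from these data, Col1a2 (-0.70, adjusted p = 0.0374) and Col5a1 (-0.87, adjusted p = 0.0416) passed as lower on HFD. Col5a3 passed as lower on NCD (-0.81, adjusted p = 0.0409). The spread among the HFD cold libraries was wide, as the values of Col3a1 show, and a p that misses the threshold does not show that these chains stayed the same.

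The remaining fibrillar chains were not called in any comparison. Col27a1, found in cartilage but also in other tissues, was the highest of them with 109 ± 3.37 CPM (SD, n = 3) on NCD at room temperature, 103 ± 20.1 CPM on NCD in the cold, 141 ± 34.2 CPM on HFD at room temperature and 108 ± 18.5 CPM on HFD in the cold. Its averaged cold difference was -0.23 (SE 0.14, adjusted p = 0.248). Col11a2 was at 3.598 CPM, and Col11a1 and Col24a1 at 0.425 and 0.488 CPM over all libraries. Col24a1 was highest in the muscle-rich library of every group, with 0.0622, 1.34 and 0.220 CPM over NCD room temperature, 0.287, 1.0005 and 0.189 over NCD cold, 0.193, 0.366 and 1.55 over HFD room temperature and 0.0450, 0.0881 and 0.513 over HFD cold. Whether skeletal muscle gave these counts was not tested. Col2a1, the main collagen of cartilage, held at most 1 count in any library, and of 5 cartilage markers Matn1, Matn3 and Snorc were at 0 in every library. The only one tested, Cnmd, was higher on HFD (log2 difference 2.63, SE 0.51, adjusted p = 0.00837, averaged over the temperatures), and the 5 summed to 0.407 to 0.514 CPM on NCD and 1.48 to 1.75 CPM on HFD at room temperature, and to 0.521 to 0.942 CPM and 1.35 to 2.64 CPM in the cold.

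Among the FACIT chains, 3 of 5 tested chains fell in the cold averaged over the diets (6.6% of all genes tested) and none rose (6.09%). Col12a1, which coats type I fibrils, was at 42.9, 52.5 and 78.2 CPM on NCD at room temperature and at 16.5, 16.2 and 18.8 CPM on NCD in the cold. On HFD its libraries held 94.4, 97.8 and 50.7 CPM at room temperature and 65.0, 42.7 and 90.0 CPM in the cold. The 3 NCD cold libraries were far below all the others, and on HFD the temperatures overlapped. Col12a1 fell in the cold on NCD by 1.75 in log2 units (SE 0.32, adjusted p = 0.00889), a call that held when each library was left out in turn, within batch 1 (-1.55, adjusted p = 0.0232) and without the muscle-rich libraries (-1.78, adjusted p = 0.0304). On HFD the difference was -0.29 (SE 0.31, adjusted p = 0.568), with -0.83 in batch 1 and 0.83 in batch 2. The difference between those cold effects was 1.46 (SE 0.44), with an unadjusted p of 0.00653 and an adjusted p of 0.591.

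Col12a1 was also the FACIT chain that rose with HFD. In the cold it was 3.83-fold higher on HFD than on NCD, with a log2 difference of 1.94 (SE 0.32, adjusted p = 0.00812), and this held in batch 1 (1.72, adjusted p = 0.0392), without the muscle-rich libraries (1.60, adjusted p = 0.0375) and without each single library. Averaged over the temperatures the rise was 1.21 (SE 0.22, adjusted p = 0.00604). At room temperature the difference was 0.48 (SE 0.31, adjusted p = 0.444) and did not pass, with 1.009 in batch 1 and -0.63 in batch 2.

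Col14a1, another chain bound to type I fibrils, was at 30.4, 26.7 and 29.5 CPM on NCD at room temperature, 12.4, 13.0 and 14.2 CPM on NCD in the cold, 15.2, 19.7 and 28.5 CPM on HFD at room temperature and 7.65, 10.3 and 21.98 CPM on HFD in the cold. It fell by 0.89 in log2 units (SE 0.23, adjusted p = 0.0195) averaged over the diets, lost without NCD cold replicate 1 (-0.85, adjusted p = 0.0509). With the block within diet it also fell on NCD (-1.13, adjusted p = 0.00372) and on HFD (-0.75, adjusted p = 0.0110). Col20a1 was low, at 3.23, 4.30 and 4.43 CPM on NCD at room temperature, 3.55, 3.47 and 3.03 CPM on NCD in the cold, 1.93, 2.77 and 2.15 CPM on HFD at room temperature and 1.0804, 1.10 and 1.19 CPM on HFD in the cold. All 6 HFD libraries of Col20a1 were below all 6 NCD libraries, and the HFD cold libraries were the lowest.

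Averaged over the temperatures, Col20a1 was lower on HFD with a log2 difference of -1.19 (SE 0.15, adjusted p = 0.000911), and this held without each single library, in batch 1 (-1.18, adjusted p = 0.0306) and without the muscle-rich libraries (-1.15, adjusted p = 0.0216). In the cold its log2 difference between HFD and NCD was -1.57 (SE 0.22, adjusted p = 0.00307), which did not pass in batch 1 (-1.68, adjusted p = 0.0838). The cold difference of Col20a1 was -1.02 (SE 0.22, adjusted p = 0.0126) on HFD and -0.64 (SE 0.15, adjusted p = 0.0110) averaged over the diets, and neither passed in batch 1 (-1.11, adjusted p = 0.0900 and -0.61, adjusted p = 0.0917) or without the muscle-rich libraries (-1.11, adjusted p = 0.0919 and -0.67, adjusted p = 0.0772). Its call in the 4-group test (adjusted p = 0.000901) was lost when any 1 library was left out. Col16a1 and Col19a1 were tested and not called, with averaged cold differences of -0.66 (SE 0.31, adjusted p = 0.152) and -0.43 (SE 0.33, adjusted p = 0.391).

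Type VI filaments are built from Col6a1, Col6a2 and another chain, mostly Col6a3. Of the 4 tested type VI chains, 3 fell in the cold averaged over the diets, against 6.6% of all genes tested. Col6a1 was at 103, 95.4 and 117 CPM on NCD at room temperature, 48.3, 54.6 and 53.0 CPM on NCD in the cold, 60.0, 66.8 and 78.2 CPM on HFD at room temperature and 36.1, 43.9 and 78.6 CPM on HFD in the cold. Col6a2 was at 103, 99.6 and 111 CPM on NCD at room temperature, 47.6, 42.7 and 41.9 CPM on NCD in the cold, 58.9, 65.5 and 74.9 CPM on HFD at room temperature and 24.6, 38.2 and 60.3 CPM on HFD in the cold. For both, the NCD groups were fully apart, and on HFD replicate 3 of the cold group lay within or above the room temperature range while the other two lay below it.

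Col6a1 fell by 0.69 in log2 units (SE 0.17, adjusted p = 0.0124) and Col6a2 fell by 0.97 in log2 units (SE 0.17, adjusted p = 0.00262), averaged over the diets. On NCD the differences were -1.02 (SE 0.24, adjusted p = 0.0250) and -1.25 (SE 0.25, adjusted p = 0.0125). The NCD call of Col6a1 was lost without NCD room temperature replicates 1, 2 or 3 or NCD cold replicates 1, 2 or 3 (-0.93 to -1.08, adjusted p = 0.0540 to 0.0967), and that of Col6a2 without NCD room temperature replicate 3 or NCD cold replicate 2 (-1.20 to -1.22, adjusted p = 0.0501 to 0.0529). Col6a2 fell on HFD with the block within diet (-0.77, adjusted p = 0.0156). Col6a3 was at 195 ± 45.7 CPM (SD, n = 3) on NCD at room temperature, 92.1 ± 3.47 CPM on NCD in the cold, 124 ± 16.6 CPM on HFD at room temperature and 106 ± 67.1 CPM on HFD in the cold, and its averaged cold difference was -0.65 (SE 0.25, adjusted p = 0.0832). It passed with the block within diet on NCD (-1.06, adjusted p = 0.0238) and averaged (-0.73, adjusted p = 0.0123), in batch 1 (-0.82, adjusted p = 0.0146) and without the muscle-rich libraries (-0.96, adjusted p = 0.0116).

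Col6a6, a chain that can take the place of Col6a3, showed the greatest fall in size of all tested chains in the cold. Its counts were 83, 115 and 280 on NCD at room temperature, 24, 24 and 72 on NCD in the cold, 17, 23 and 197 on HFD at room temperature and 2, 15 and 21 on HFD in the cold. Replicate 3 of HFD room temperature, a muscle-rich library, held most of the counts of its group. The averaged cold difference of Col6a6 was -2.36 (SE 0.45, adjusted p = 0.00400). On HFD it was -2.67 (SE 0.67, adjusted p = 0.0265), lost without HFD room temperature replicate 3 or HFD cold replicates 1 or 3 (-1.44 to -2.80, adjusted p = 0.0686 to 0.109) and without the muscle-rich libraries (-1.60, adjusted p = 0.194). On NCD it was -2.05 (SE 0.62, adjusted p = 0.0679) and passed with the block within diet (-2.05, adjusted p = 0.0196). HFD was lower with a log2 difference of -1.52 (SE 0.45, adjusted p = 0.0452) averaged over the temperatures, lost without NCD room temperature replicates 1, 2 or 3, NCD cold replicates 1, 2 or 3, HFD room temperature replicates 1 or 2 or HFD cold replicates 1 or 3 (-1.31 to -1.61, adjusted p = 0.0637 to 0.0893).

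Col15a1 and Col18a1 are multiplexins, which anchor basement membranes to the matrix beneath them and release fragments that restrain vessel growth. Col15a1 was at 64.5, 67.7 and 107 CPM on NCD at room temperature, 36.6, 36.5 and 31.9 CPM on NCD in the cold, 50.6, 35.9 and 46.96 CPM on HFD at room temperature and 17.4, 22.9 and 53.7 CPM on HFD in the cold. On NCD the cold libraries lay below the room temperature libraries, and on HFD replicate 3 of the cold group was above all 3. Col15a1 fell by 0.85 in log2 units (SE 0.25, adjusted p = 0.0330) averaged over the diets, a call lost without NCD room temperature replicate 3, NCD cold replicates 1, 2 or 3, HFD room temperature replicates 1 or 3 or HFD cold replicates 1 or 2 (-0.69 to -0.86, adjusted p = 0.0598 to 0.0982), and with the block within diet it fell on NCD (-1.16, adjusted p = 0.0411). Col18a1 was at 39.999, 32.5 and 36.0 CPM on NCD at room temperature, 22.5, 22.7 and 23.9 CPM on NCD in the cold, 55.1, 33.7 and 32.1 CPM on HFD at room temperature and 18.0, 23.2 and 27.4 CPM on HFD in the cold. The cold libraries of Col18a1 were below the room temperature libraries on both diets, and it fell by 0.73 in log2 units (SE 0.15, adjusted p = 0.00489) averaged over the diets. On HFD its difference was -0.81 (SE 0.21, adjusted p = 0.0279), lost without NCD room temperature replicate 3, HFD room temperature replicate 1 or HFD cold replicates 1 or 2 (-0.49 to -0.82, adjusted p = 0.0519 to 0.126) and with the block within diet (-0.78, adjusted p = 0.0505). These basement membrane zone chains thus differed in sign from Col4a1 and Col4a2.

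Of the transmembrane collagens, which span the cell surface, Col13a1 rose and Col23a1 fell. Col13a1 was at 3.30, 2.56 and 3.77 CPM on NCD at room temperature, 3.50, 5.002 and 6.11 CPM on NCD in the cold, 2.899, 3.35 and 2.80 CPM on HFD at room temperature and 5.94, 5.42 and 6.41 CPM on HFD in the cold. The temperatures were apart on HFD and overlapped on NCD. The averaged cold difference of Col13a1 was 0.79 (SE 0.16, adjusted p = 0.00520), which did not pass without the muscle-rich libraries (0.66, adjusted p = 0.0728). On HFD it was 0.98 (SE 0.23, adjusted p = 0.0189), lost without HFD room temperature replicates 1 or 3 or HFD cold replicate 3 (0.92 to 0.99, adjusted p = 0.0539 to 0.0615) and without the muscle-rich libraries (0.86, adjusted p = 0.140). Col23a1 was at 4.23, 5.29 and 3.72 CPM on NCD at room temperature, 1.89, 2.001 and 2.65 CPM on NCD in the cold, 2.899, 2.51 and 3.81 CPM on HFD at room temperature and 1.13, 1.41 and 1.24 CPM on HFD in the cold, and the cold libraries were below the room temperature libraries on both diets.

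Col23a1 was the chain that fell in the cold on both diets by the main test, where 1.28% of all genes tested did. The difference was -1.0004 (SE 0.24, adjusted p = 0.0275) on NCD, -1.29 (SE 0.24, adjusted p = 0.00726) on HFD and -1.15 (SE 0.17, adjusted p = 0.000860) averaged. The NCD call was lost without NCD room temperature replicates 1, 2 or 3 or NCD cold replicates 1 or 2 (-0.85 to -1.11, adjusted p = 0.0516 to 0.111) and with the block within diet (-0.99, adjusted p = 0.0522), and without the muscle-rich libraries neither diet passed by itself (-0.78, adjusted p = 0.202 and -1.09, adjusted p = 0.0851). HFD was lower with a log2 difference of -0.66 (SE 0.17, adjusted p = 0.0270) averaged over the temperatures, lost without NCD room temperature replicate 2, NCD cold replicate 3, HFD room temperature replicate 2 or HFD cold replicate 1 (-0.59 to -0.62, adjusted p = 0.0555 to 0.0643) and without the muscle-rich libraries (-0.71, adjusted p = 0.0716). Col4a2 was the chain that rose on both diets, where 2.37% of all genes tested did.

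Col10a1, a short-chain network collagen known from hypertrophic cartilage, was low throughout. Its counts were 6, 5 and 13 on NCD at room temperature, 27, 18 and 78 on NCD in the cold, 8, 22 and 14 on HFD at room temperature and 13, 65 and 91 on HFD in the cold, where replicate 3 was sequenced more deeply in every group. It rose by 1.82 (SE 0.40, adjusted p = 0.00816) averaged over the diets, but not in batch 1 (1.49, adjusted p = 0.120) or without the muscle-rich libraries (1.67, adjusted p = 0.0682). The rise on NCD was 2.19 (SE 0.59, adjusted p = 0.0459), lost without NCD room temperature replicates 1, 2 or 3, NCD cold replicates 1, 2 or 3, HFD room temperature replicate 1 or HFD cold replicate 3 (1.99 to 2.37, adjusted p = 0.0594 to 0.147) and without the muscle-rich libraries (2.31, adjusted p = 0.155). Col8a1, made by vascular cells, was at 13.4 CPM over all libraries and was not called, with 0.25 (SE 0.21, adjusted p = 0.436) for cold.

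Col28a1 and Col7a1 were called for HFD and not for cold by the main test. Col28a1, a chain outside the main classes, was at 1.93, 1.57 and 1.25 CPM on NCD at room temperature, 0.459, 1.41 and 1.40 CPM on NCD in the cold, 2.58, 2.82 and 2.54 CPM on HFD at room temperature and 3.78, 1.67 and 3.82 CPM on HFD in the cold. The NCD and HFD libraries overlapped through replicate 2 of HFD cold. Col28a1 was higher on HFD by 1.12 (SE 0.29, adjusted p = 0.0281) averaged over the temperatures, lost without NCD room temperature replicates 2 or 3, HFD room temperature replicates 1 or 2 or HFD cold replicates 1 or 3 (1.012 to 1.12, adjusted p = 0.0509 to 0.0737) and without the muscle-rich libraries (1.13, adjusted p = 0.106). Col7a1, the chain of the anchoring fibrils that join epithelial basement membranes to the matrix, was lower on HFD with an averaged log2 difference of -1.10 (SE 0.29, adjusted p = 0.0315), lost without NCD room temperature replicates 2 or 3, NCD cold replicates 2 or 3, HFD room temperature replicate 2 or HFD cold replicates 1 or 2 (-0.98 to -1.09, adjusted p = 0.0504 to 0.0732). Its levels were 3.73 to 7.57 CPM on NCD at room temperature, 3.096 to 5.44 CPM on NCD in the cold, 1.74 to 5.45 CPM on HFD at room temperature and 1.31 to 2.14 CPM on HFD in the cold. With the block within diet, Col7a1 fell in the cold on HFD (-0.92, adjusted p = 0.0303) and averaged over the diets (-0.65, adjusted p = 0.0168).

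The cold differences on the 2 diets rest on separate libraries and can be set side by side. For Col1a1, Col1a2, Col3a1, Col5a1, Col5a2 and Col12a1 the fall on NCD was larger in size than the difference on HFD, and for Col4a1, Col4a2, Col13a1 and Col20a1 the value on HFD was. The test of the difference itself, the interaction of diet and temperature, called 0 of 33 tested chains with edgeR, and 0% of all genes tested. At an unadjusted p under 0.05 it gave 4 chains, Col3a1, Col5a2, Col12a1 and Col20a1, against 6.52% of all genes tested, and DESeq2 called 1, Col5a2 (1.32, adjusted p = 0.0416). The smallest adjusted p in edgeR was 0.525, for Col5a2. A different cold response on the 2 diets was therefore not detectable at 3 libraries per group by the main test.

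**Figure D4:**
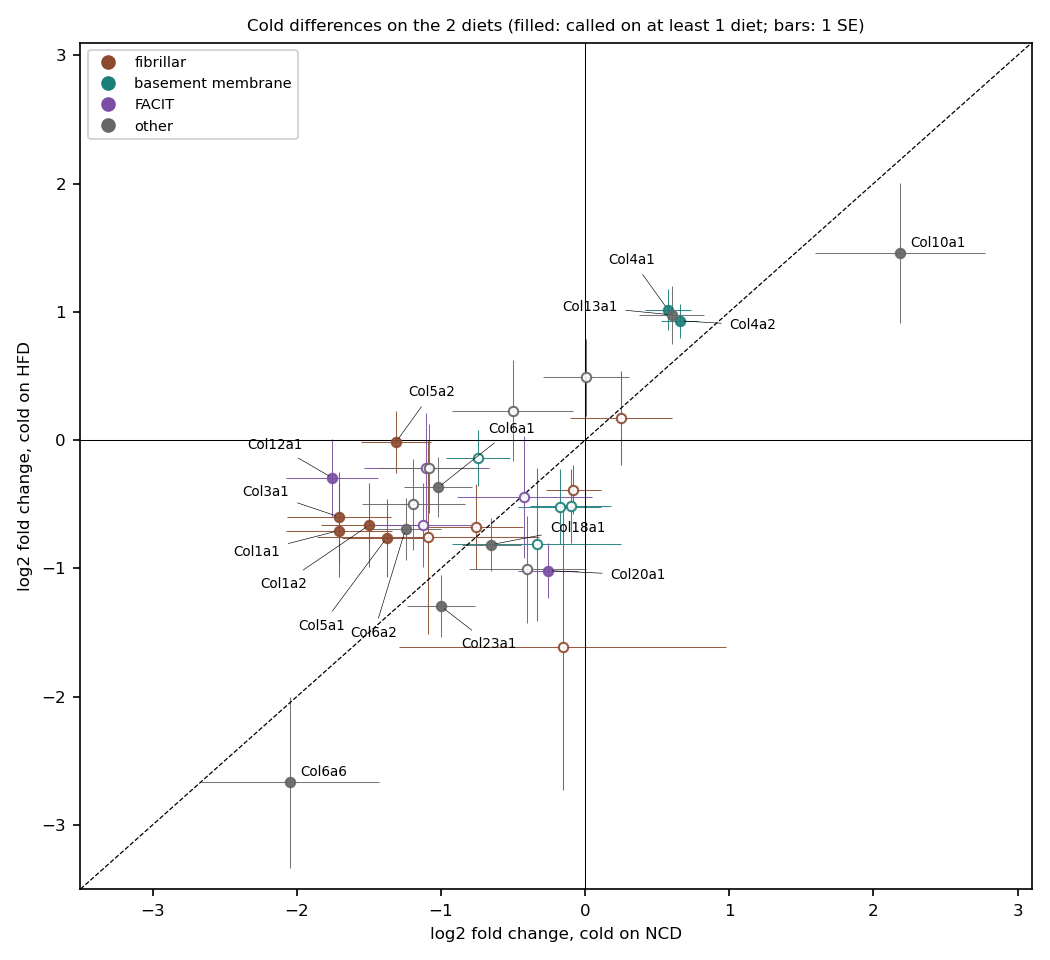
Log2 fold change in the cold on NCD (horizontal) against that on HFD (vertical) for the 33 tested chains, with 1 SE as bars, filled points for chains called on at least 1 diet and the dashed line for equal values. Col1a1, Col1a2, Col3a1, Col5a1, Col5a2 and Col12a1 lie above the line on the left, nearer to 0 on HFD, and Col4a1 and Col4a2 lie above it on the right.

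HFD gave fewer calls than cold. At room temperature edgeR called 0 of 33 tested chains, against 2.09% of all genes tested, with 9 at an unadjusted p under 0.05 (18.1% of all genes tested), and DESeq2 called 4, Col1a1, Col1a2, Col3a1 and Col20a1, all lower. Leaving out HFD cold replicate 3 gave 3 calls, and leaving out HFD cold replicate 1 or HFD room temperature replicate 3 gave 1. The HFD libraries lay wholly above the NCD libraries for 4 chains (background 13%) and wholly below for 10 (12.9%). The median log2 fold change of the tested chains was -0.45 there and 0.03 for all genes tested, and the nearest to a call was Col1a1 (log2 difference -1.4998, SE 0.37, adjusted p = 0.0590). In the cold 5 chains were called, against 4.75% of all genes tested. Col4a1, Col4a2, Col4a5 and Col12a1 were higher (background 2.06%) and Col20a1 lower (2.69%), and at an unadjusted p under 0.05 it was 11 chains (22.7%). Groups were wholly apart for 5 chains with HFD above (12.1%) and 5 with HFD below (13.1%). Averaged over the temperatures 13 chains had an unadjusted p under 0.05 (29.7%) and 10 were called (7.8%), with Col4a1, Col4a2, Col4a5, Col12a1 and Col28a1 higher (4.24%) and Col1a1, Col6a6, Col7a1, Col20a1 and Col23a1 lower (3.55%). Of these 10, Col4a2, Col4a5, Col12a1 and Col20a1 were called in each of the 12 fits without 1 library. In batch 1 alone, 5 of the 10 averaged calls and 1 of the 5 in the cold passed, with the same signs in both batches. The averaged count was 4 without HFD cold replicate 1, 14 without HFD cold replicate 3 (3 higher and 11 lower), 12 without the muscle-rich libraries (3 higher and 9 lower), 5 without NCD room temperature replicate 2, 6 without NCD room temperature replicate 3, NCD cold replicate 3 or HFD room temperature replicate 1, and 10 or fewer without each other library. The count in the cold was 2 without NCD cold replicate 1 or 3, HFD cold replicate 3 or the muscle-rich libraries.

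Chains that share a trimer or a function were compared as ratios of counts per length, which do not depend on the scaling between libraries. Of 8 ratios tested for cold with an exact permutation test within diet, two-sided, where 400 arrangements allow a smallest p of 0.005, none passed after Benjamini-Hochberg adjustment. Each p is for the difference averaged over the diets. Col1a1 to Col1a2 was 0.557 to 0.712 on NCD at room temperature and 0.497 to 0.600 on NCD in the cold. On HFD it was 0.366 to 0.605 and 0.433 to 0.481 (exact p = 0.33, adjusted p = 0.66). Col6a1 to Col6a2 was 1.09 to 1.20 at room temperature and 1.15 to 1.45 in the cold on NCD, and 1.15 to 1.19 at room temperature and 1.31 to 1.66 in the cold on HFD (exact p = 0.01, adjusted p = 0.08). It was higher in the cold in all 6 pairs of libraries with the same number, which the test did not use. Col5a1 to Col5a2 was 0.757 to 1.11 on HFD at room temperature and 0.374 to 0.720 on HFD in the cold. On NCD it was 0.750 to 0.941 and 0.759 to 0.873, and the log2 cold difference was -0.05 on NCD and -0.80 on HFD (averaged, exact p = 0.05, adjusted p = 0.133). Col8a1 to Col8a2 had the same p-values, and Col8a2 was at 0.409 CPM over all libraries, too low for the main test. Col3a1 to Col1a1 (exact p = 0.98), Col6a3 to Col6a1 (0.985) and Col15a1 to Col18a1 (0.475) did not pass.

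Genes that process collagen were read beside the averaged cold contrast, in which 12.7% of all genes tested were called. Of 19 tested genes that modify and fold procollagen in the endoplasmic reticulum, such as the prolyl and lysyl hydroxylases, edgeR called 0 for cold averaged over the diets, and the median log2 fold change was 0.02. Of 12 tested genes of procollagen cleavage and crosslinking, Loxl1, a lysyl oxidase that crosslinks elastin and collagen, rose by 0.71 (SE 0.12, adjusted p = 0.00155) and Tll1, a procollagen C-proteinase, fell by 0.82 in log2 units (SE 0.25, adjusted p = 0.0392). Pcolce, which enhances that cleavage, was higher on HFD on average over the temperatures (log2 difference 1.42, SE 0.16, adjusted p = 0.000520), with 32.6 ± 3.51 CPM (SD, n = 3) on NCD and 76.7 ± 11.2 CPM on HFD at room temperature, and 25.2 ± 5.09 and 76.6 ± 26.3 CPM in the cold. Of 13 tested proteins that bind collagen in the matrix, 3 fell in the cold and none rose. These were osteoglycin (Ogn, log2 difference -0.73, SE 0.19, adjusted p = 0.0205), lumican (Lum, log2 difference -0.62, SE 0.17, adjusted p = 0.0237) and fibronectin (Fn1, log2 difference -0.62, SE 0.13, adjusted p = 0.00779).

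Among 15 tested partners of type IV collagen in basement membranes, 2 rose and 2 fell in the cold averaged over the diets. The laminin chains Lamb3 (log2 difference 1.82, SE 0.30, adjusted p = 0.00169) and Lama5 (log2 difference 0.52, SE 0.12, adjusted p = 0.00897) rose, and Lama4 (log2 difference -0.94, SE 0.19, adjusted p = 0.00552) and Lama2 (log2 difference -0.71, SE 0.17, adjusted p = 0.0124) fell. Lamb3 was highest in HFD cold with 57.4 ± 18.3 CPM (SD, n = 3), beside 3.95 ± 2.17 CPM on NCD at room temperature. Of 9 tested collagen receptors edgeR called 0, with a median log2 fold change of -0.26. The background for these counts is that of the averaged cold contrast, 6.09% higher and 6.6% lower.

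The summed level of 7 fibroblast markers was 91.3 to 98.5 CPM on NCD at room temperature, 59.6 to 63.4 CPM on NCD in the cold, 57.1 to 119.8 CPM on HFD at room temperature and 46.6 to 75.8 CPM on HFD in the cold, and 3 of the 7 (Clec3b, Mfap5 and Fap) fell in the cold averaged over the diets. Replicate 3 was the highest library of both HFD groups in this sum. In HFD cold it was also the highest for every chain of types I, III and V and for Col6a1, Col6a2 and Col6a3. In HFD room temperature it was the highest for Col1a2, Col5a1, Col6a1, Col6a2 and Col6a3. It was not the highest there for Col1a1, Col3a1, Col5a2 and Col5a3. The sum of the 7 endothelial markers found was 565 to 690.3, 791 to 871, 771 to 1032 and 1036 to 1141 CPM in the same order. It was lowest in the NCD room temperature libraries and highest in the HFD cold libraries. Col4a1 and Col4a2 were highest in the same libraries, and Col4a1 overlapped between the room temperature groups. For cold averaged over the diets, 12.7% of all genes tested were called, and 6.6% were lower, the background of the fibroblast count. None of the 7 endothelial markers was called for that contrast, with a median log2 fold change of 0.29. A list this short may hold no call at that share. Cold on NCD called 1 of them higher (background 3.72%). Pecam1 and Kdr were higher on HFD averaged over the temperatures (background 4.24%).

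Among 8 markers of mural cells, which also lay down type IV collagen, none was called for cold averaged over the diets, and their sum was 992 to 1137, 910.4 to 1015, 1107 to 1275 and 831 to 1112 CPM in the same order. Of 8 skeletal muscle and 5 tested immune markers none was called for that contrast. At its background of 12.7% of all genes tested, lists as short as these may hold no call. The median log2 fold change was -0.03 for the mural, -1.37 for the muscle and -0.21 for the immune markers. The muscle sum was lower in each cold library than in the room temperature library of the same diet and number. The epithelial marker Krt5 was at 0 in every library, and the summed epithelial level did not exceed 2.91 CPM. The part that a changed makeup of cells had in the collagen differences was not tested.

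**Figure D5:**
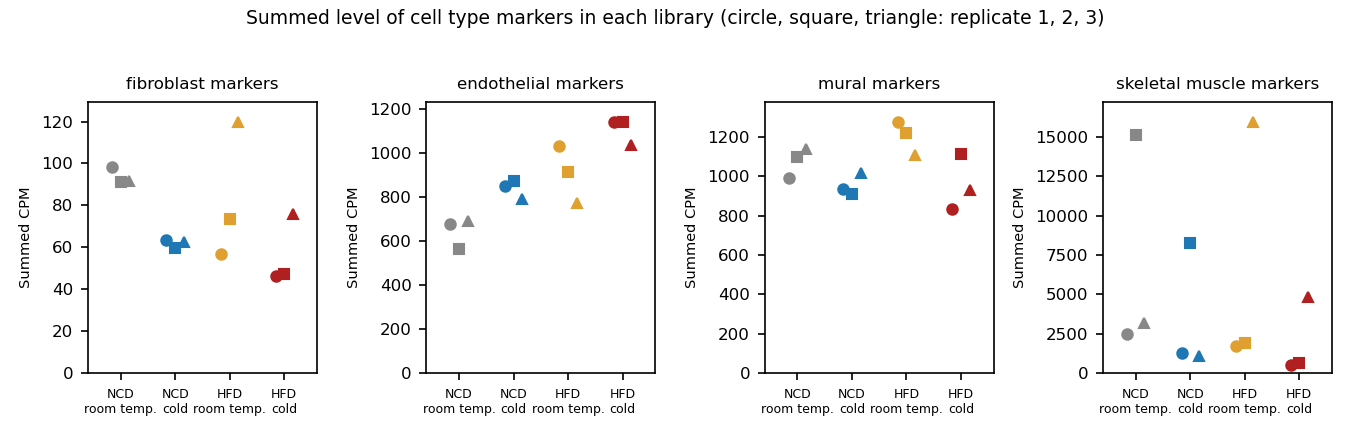
Summed CPM of fibroblast, endothelial, mural and skeletal muscle markers in every library, with circle, square and triangle for replicates 1, 2 and 3. Fibroblast markers were lower in the NCD cold libraries (59.6 to 63.4 CPM) than in the NCD room temperature libraries (91.3 to 98.5 CPM), endothelial markers were highest in HFD cold (1036 to 1141 CPM), and 1 library of each group held most of the muscle signal.

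The 11 chains below the filter on counts were Col2a1, Col9a1, Col9a2, Col9a3, Col22a1, Col6a4, Col6a5, Col8a2, Col17a1, Col25a1 and Col26a1. They had no test, and Col2a1, Col9a1 and Col9a2 held 3 counts or fewer in every library, no more than a count of 0 allows. Col22a1, a FACIT chain of the muscle-tendon junction, was highest in the muscle-rich library of every group, with 0.0622, 1.40 and 0.269 CPM over NCD room temperature, 0.115, 0.177 and 0.0710 over NCD cold, 0.193, 0.209 and 0.904 over HFD room temperature and 0.0450, 0.0881 and 0.396 over HFD cold. Col6a5 was highest there in all groups but HFD cold, with 0.311, 1.69 and 0.465 CPM over NCD room temperature and 0.129, 0.366 and 0.762 CPM over HFD room temperature. In NCD cold the counts were only 2, 3 and 3 for Col22a1 and 3, 5 and 4 for Col6a5, too few to rank those libraries. Whether these counts came from muscle in the dissected tissue was not tested. Col25a1, a transmembrane chain of neurons, was at 0.124, 0.174 and 0.588 CPM on NCD at room temperature and at 0, 0.118 and 0 CPM on NCD in the cold. The other untested chains had means over all libraries of 0.203 CPM for Col9a3, 0.0345 CPM for Col6a4, 0.409 CPM for Col8a2, 0.118 CPM for Col17a1 and 0.187 CPM for Col26a1.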

How the data were processed

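Ribosomal RNA was removed from the total RNA of iBAT, which the study sequenced from both ends of each fragment. Per the authors' methods, reads were filtered for quality with cutadapt and assigned by salmon to the GENCODE M22 transcripts of GRCm38, alone or with RNAcentral 5. Tool versions and the use of strand are not given in the sources used here. The authors deposited estimated counts per gene as whole numbers, and these were used without change.

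Gene positions and lengths were taken from GENCODE M21, in which all 44 chains had the same identifier version. Genes passing filterByExpr in edgeR 4.0.16 (R 4.3.3, minimum count 10) were normalised with TMM and fitted with the quasi-likelihood model of the 4 group means over all 12 libraries, and p-values were adjusted by Benjamini-Hochberg over all 16737 genes tested. The fit was tested on simulated counts. The labels do not say that replicates are separate mice, so p-values measure only the spread between these libraries. Precision follows depth, at 15136861 to 46740702 counts per library.

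Within each diet, libraries of the same number deviated together (correlations of 0.219, 0.456 and 0.281 on NCD and 0.155, 0.217 and 0.386 on HFD). For the block within diet, the numbers were therefore taken to pair room temperature with cold libraries. No label gives this pairing, and it was drawn from the same data as the calls made with it. The highest value on each diet was that of the muscle-rich libraries. Between different numbers of the same diet, the correlation exceeded 0.1 only for replicates 1 and 2 on HFD (0.134 and 0.106). What a number shares, beside the batch, is not given in the sources used here. Alternatives were DESeq2 1.42.0, other scaling and filters, a batch term, batch 1 alone, replicate blocks, only the groups compared, and leaving out each library. Leaving out the muscle-rich library of each group was chosen after seeing the data. The chains and gene lists were chosen with earlier results of these data known. All chains called in any test or fixed for their role are named, and of other lists the largest changes called for cold. Fn1, Fap and Pcolce lie outside that rule and were chosen after their values were seen. Cnmd, Pecam1 and Kdr, named for their HFD difference, and the markers named for being at 0 in every library lie outside it as well. A further marker list is not reported here.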

Additional observations from a re-analysis of the deposited data

How the results depend on the processing

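The counts of called chains moved by more than 1.5 times under some alternatives. The main counts were 3 in the 4-group test, 11 for cold on NCD, 7 for cold on HFD, 0 for HFD at room temperature, 5 for HFD in the cold, 0 for the interaction, 18 for cold averaged and 10 for HFD averaged. DESeq2 called 16 in the 4-group test, 18 for cold on NCD, 4 for HFD at room temperature, 8 for HFD in the cold and 1 for the interaction, where over all genes it called 2625 in the 4-group test (main 427), 1444 for cold on NCD (1049), 828 for HFD at room temperature (349) and 1321 for HFD in the cold (795). Without a filter the 4-group test called 10 and HFD at room temperature 3, and with library totals in place of TMM HFD at room temperature called 1. A batch term left 1 in the 4-group test. Batch 1 alone gave 0 in the 4-group test, 6 for cold on NCD, 2 for cold on HFD and 1 for HFD in the cold. Over all genes it called 0, 352, 416 and 53 in the same order. Fits of only the groups compared gave 4 for cold on HFD, 1 for HFD at room temperature and 2 for HFD in the cold. Without the muscle-rich libraries, an alternative chosen after seeing the data, the counts were 0 in the 4-group test, 6 for cold on NCD and 2 for HFD in the cold. With those fewer libraries the calls over all genes fell too, to 11 (main 427), 281 (1049) and 384 (795) in the same order. The cause of these moves was not tested.

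With the replicate block, in which a number pairs libraries within a diet, cold on HFD called 11 chains. Over all genes it called 2153 (main 1603). Single calls it changed are given beside the chains. Across diets same-numbered libraries share the batch but did not all deviate together (correlations of 0.365, -0.18 and -0.0385 at room temperature and 0.196, -0.211 and 0.0387 in the cold). The muscle-rich libraries of the 2 diets, of unlike number, had correlations of 0.374 at room temperature and 0.225 in the cold. A replicate block over all groups gave 1 in the 4-group test and 2 for HFD at room temperature.

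When each library was left out in turn, the counts were 0 to 3 in the 4-group test, 3 to 16 for cold on NCD, 5 to 11 for cold on HFD, 0 to 3 for HFD at room temperature, 2 to 7 for HFD in the cold and 4 to 14 for HFD averaged. The log2 cold differences of ratios near 0 changed sign, at -0.077 to 0.089 for Col3a1 to Col1a1, -0.026 to 0.022 for Col4a1 to Col4a2 and -0.079 to 0.087 for Col6a3 to Col6a1, and that of Col6a1 to Col6a2 was 0.24 to 0.34. The averaged cold difference of Col28a1 was -0.24 to 0.058. In the contrast in which it was called, each chain kept its sign under every alternative. Depth limited the 15 chains below 1 CPM, of which 4 could be tested. Many calls within a diet passed or failed with a single library.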
